A study of Rattus norvegicus with 6 samples.

Results

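In left ventricular myocardium of rats on 2 diets, 4 microRNAs (miRNAs) were followed whose genes sit inside protein-coding genes of lipid and cofactor metabolism. They were chosen by name: miR-33-5p, which is encoded in Srebf2, miR-378a-5p, encoded in Ppargc1b, and miR-103-3p and miR-107-3p, encoded in pantothenate kinase genes. These 4 were found among the 758 miRNAs of the array, and miR-378a-3p, the fifth miRNA of the set, was not analysed here. The samples were total RNA of male Wistar rats that had received normal chow (3 samples) or a high-fat diet (3 samples) for 20 weeks, with strain, sex and tissue shared by both groups. The labels name the high-fat samples obesity and give neither age, body weight nor diet composition, and they leave unsaid whether each sample is a different animal. All p-values are therefore relative to the spread among these samples, and part of that spread can be technical.

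A miRNA gene inside an intron is commonly transcribed together with its host. Srebf2 encodes the transcription factor that switches on cholesterol synthesis and uptake, and miR-33 is known to lower the cholesterol exporter Abca1 and enzymes of fatty acid oxidation in mouse and human cells. Ppargc1b encodes a coactivator of mitochondrial energy metabolism, and mice without both strands of miR-378a resist obesity on a high-fat diet. Pank1, Pank2 and Pank3 encode pantothenate kinases, which catalyse the rate-limiting step of coenzyme A synthesis, and miR-103 and miR-107 are known as regulators of insulin sensitivity in mouse liver and fat.

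The mature sequences that the comparison rests on are shown with the seed, bases 2 to 8, in capitals, because the seed decides which messages a miRNA can pair with. They are taken from RefSeq on rat build GRCr8, where all 4 miRNAs and the partner strand miR-33-3p had an entry.
rno-miR-33-5p: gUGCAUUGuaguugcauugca
rno-miR-33-3p: cAAUGUUUccacagugcauca
rno-miR-378a-5p: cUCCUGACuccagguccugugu
rno-miR-103-3p: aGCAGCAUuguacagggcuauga
rno-miR-107-3p: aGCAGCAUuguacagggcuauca

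On GRCr8 these lie at chr7:115593957-115593977 and chr7:115593997-115594017 (both plus strand), chr18:57128962-57128983 (minus strand), chr3:138963278-138963300 (plus strand) and chr1:241750431-241750453 (minus strand). The RefSeq annotation places Mir33 within the boundaries of Srebf2, Mir378 within Ppargc1b and Mir107 within Pank1, each on the host's strand. The sequence of miR-103-3p is contained in the hairpins of 2 genes, Mir103a1 within Pank3 on chromosome 10 and Mir103a2 within Pank2 on chromosome 3, so a signal for miR-103-3p cannot be assigned to either host. miR-103-3p and miR-107-3p share the seed GCAGCAU and 22 of 23 bases. They differ by G22C, counted from 1 at the 5′ end of miR-103-3p. Whether their probes tell this base apart was not tested. Among 693 mature rat miRNAs in the table, no other entry had this seed, and none shared the seed of miR-33-5p, miR-33-3p or miR-378a-5p.

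The array signal is a fluorescence intensity, and it is given here as a multiple of the 75th percentile of each array's detected probes (the scaled signal), or as log2 of it. A miRNA was compared if its probe was detected (well above background) on 3 or more arrays, which was so for 425. Before scaling, the 75th percentiles were 415 to 561 on high-fat and 359 to 424 on chow arrays, and a hybridisation quality value, the stringency spike-in ratio, was 0.974 to 1.94 on high-fat and 3.44 to 4.19 on chow arrays. Chow replicate 1 shared slide 1 with the 3 high-fat arrays, and the other chow arrays were on slide 2. All 5 cardiomyocyte marker miRNAs were detected on all 6 arrays, while of the 3 liver markers miR-122-5p was detected on none and miR-192-5p and miR-194-5p on all 6. The summed scaled signal of the liver markers was 0.655 to 0.851 on high-fat and 0.692 to 0.730 on chow arrays. That of 2 endothelial markers was 61.9 to 73.1 on high-fat and 68.8 to 72.3 on chow arrays. The summed scaled signal of the 5 cardiomyocyte markers was 167 to 201 on high-fat and 212 to 216 on chow arrays. Most of it came from miR-1-3p (104 to 129 against 129 to 136). For 3 erythroid markers the sum was 13.8 to 20.2 against 9.04 to 11.1, most of it from miR-451-5p (11.4 to 16.5 against 7.86 to 10.1). The part of these shifts in the values below was not tested.

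None of the 4 host-gene miRNAs passed the test between the diets (limma, 0 of 4 at an adjusted p under 0.05, and 0 of 4 at an unadjusted p under 0.05). Over all 425 miRNAs, 0.471% passed at the adjusted and 11.8% at the unadjusted level. The median log2 difference of the 4, high-fat diet minus chow, was 0.03, with 3 positive and 1 negative, against a median of -0.04 over all 425. The high-fat and chow arrays overlapped for each of the 4. Over all 425 miRNAs they did not overlap for 17.2%, and 4 miRNAs are too few to differ clearly from that share.

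**Figure D1:**
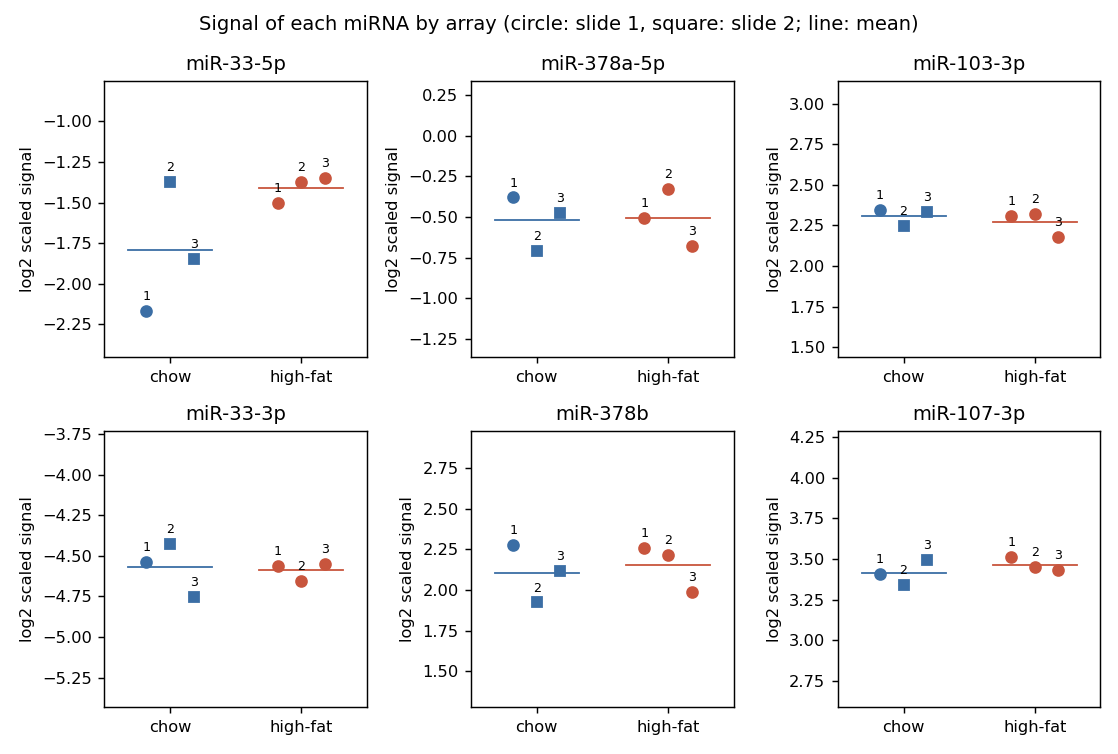
Log2 scaled signal of the 4 host-gene miRNAs, the partner strand miR-33-3p and the relative miR-378b on each of the 6 arrays, by diet; numbers are replicates, circles slide 1, squares slide 2, and lines group means, with a y axis of equal height in each panel. The chow arrays of miR-33-5p lie far apart, from -2.17 to -1.37, while miR-103-3p and miR-107-3p vary little on either diet.

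miR-33-5p, the cholesterol-linked miRNA of Srebf2, had the largest difference of the 4, and its chow arrays disagreed among themselves. Its scaled signal was 0.223, 0.386 and 0.278 on chow replicates 1, 2 and 3. On the high-fat diet it was 0.353, 0.386 and 0.392. The 3 high-fat arrays were close together, chow replicates 1 and 3 lay below them, and chow replicate 2 lay among them. The chow mean was 0.296 ± 0.0831 and the high-fat mean 0.377 ± 0.0211 (SD, n = 3 each). The fit compared means of the log2 values and not these means. It gave a signal 1.31-fold higher on the high-fat diet with a 95% interval from 0.957 to 1.78 (log2 difference 0.39 ± 0.19 SE, limma adjusted p = 0.446, unadjusted p = 0.0822).

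The size of this difference depended on single chow arrays. It was 0.20 on the log2 scale without chow replicate 1 (limma adjusted p = 0.829, unadjusted p = 0.264). Without chow replicate 2 it was 0.60 (limma adjusted p = 0.185, unadjusted p = 0.0041). Within slide 1, against chow replicate 1 alone, it was 0.76 (limma adjusted p = 0.214). That fit takes its spread from the high-fat arrays and assumes that the lone chow array varies like them, and slide 2 held no high-fat array. With slide as a block the difference was again 0.76 (limma adjusted p = 0.267). It rests on the same contrast with chow replicate 1, since slide 2 held no high-fat array, and is no second check.

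All 3 probes of miR-33-5p gave the same order of the chow arrays. The brightest probe, A_26_P00001271, which stands for the miRNA here, read 80.1, 164 and 105 intensity units on chow replicates 1, 2 and 3 before scaling. Its spots within an array varied by a coefficient of variation of 2.35% to 14.8%, against 28.1% between the scaled chow arrays and 5.59% between the high-fat arrays. Probes A_26_P00001269 and A_26_P00001270, were also dimmest on chow replicate 1, at 12.8 and 13.2 units, and read 25.9 and 33.4 units on chow replicate 2. The log2 differences between diets were 0.52, 0.34 and 0.39 for A_26_P00001269, A_26_P00001270 and A_26_P00001271.

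**Figure D2:**
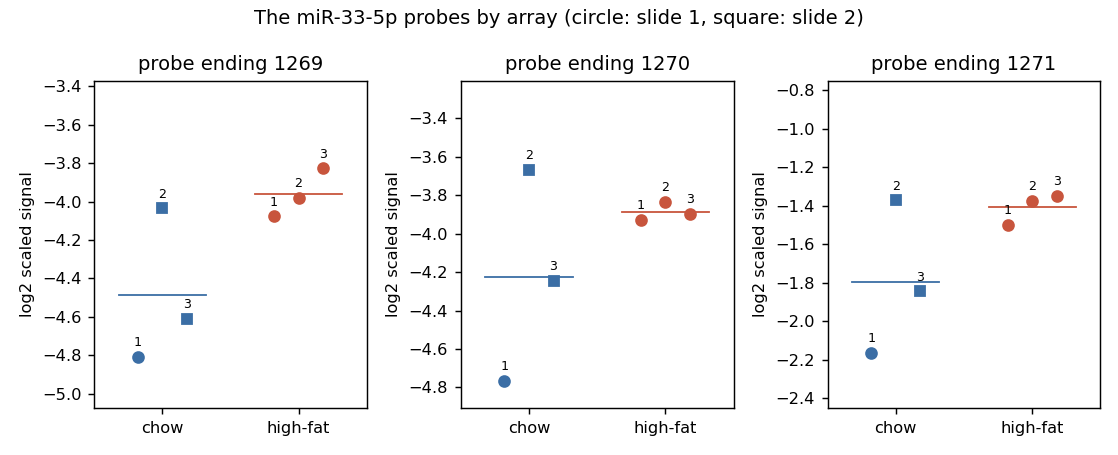
Log2 scaled signal of each of the 3 miR-33-5p probes on the 6 arrays, by diet; numbers are replicates, circles slide 1, squares slide 2 and lines group means. In each panel chow replicate 1 is lowest and chow replicate 2 lies at or near the high-fat arrays.

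The partner strand miR-33-3p, cut from the same hairpin, was well above background on all 6 arrays through 1 of its 3 probes. That probe read a scaled signal of 0.0431, 0.0465 and 0.0371 on chow replicates 1 to 3 and 0.0423, 0.0397 and 0.0427 on high-fat replicates 1 to 3. The high-fat arrays lay within the range of the chow arrays (log2 difference -0.02 ± 0.11 SE, limma adjusted p = 0.958). A second probe was above background on 1 array and the last on none.

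To compare the strands, miR-33-3p was subtracted from miR-33-5p on the log2 scale within each array, which removes the array's scaling. This comparison was chosen after the values were seen. It gave 2.37, 3.05 and 2.91 on chow replicates 1, 2 and 3, and 3.06, 3.28 and 3.20 on high-fat replicates 1, 2 and 3. The 3 high-fat values lay above the chow values, the closest pair being 3.06 on high-fat replicate 1 and 3.05 on chow replicate 2. The change was 0.40 on the log2 scale (3.18 ± 0.11 on high-fat, 2.78 ± 0.36 on chow, SD, n = 3 each), with a 2-sided exact permutation p of 0.1, the smallest that 3 against 3 arrays can give. The groups overlapped in 7 of 11 alternative ways of processing with such a test, where the exact permutation p was 0.2 in 6 and 0.3 in 1. The 1 at 0.3 had a signal floor 4 times higher, which covered miR-33-3p on all 6 arrays, so it read miR-33-5p alone. Scaling over all probes, median scaling and no scaling cannot change a within-array difference. They returned 0.40 by construction and are no check of the separation. Of 102 miRNAs with both strands tested, 15.7% had strand differences that did not overlap between the diets, and 12 had a larger change than miR-33. Without chow replicate 1 the change was 0.20.

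**Figure D3:**
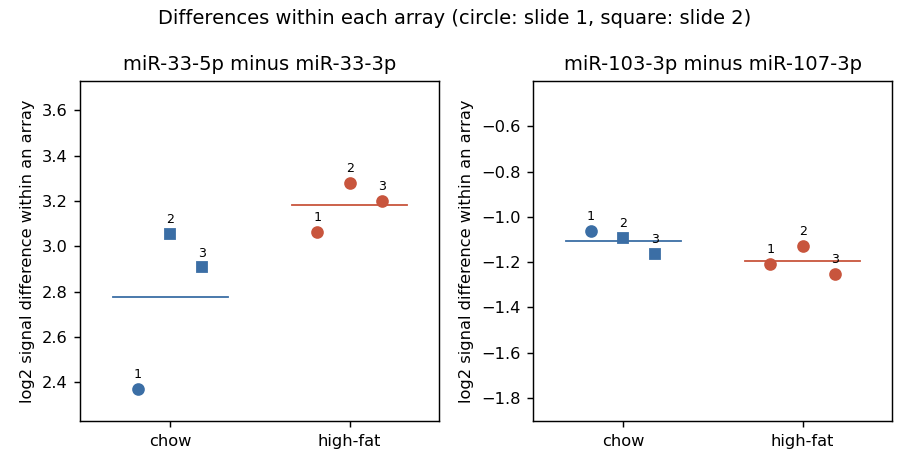
Difference of log2 signals within each array for miR-33-5p minus miR-33-3p (left) and miR-103-3p minus miR-107-3p (right), by diet; numbers are replicates, circles slide 1, squares slide 2 and lines group means. On the left the high-fat values start at 3.06, just above the highest chow value of 3.05, and on the right the groups overlap.

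miR-378a-5p, 1 strand of the hairpin inside the mitochondrial coactivator gene Ppargc1b, did not differ detectably between the diets. Its scaled signal was 0.768, 0.612 and 0.719 on chow replicates 1, 2 and 3. On high-fat replicates 1, 2 and 3 it was 0.704, 0.795 and 0.625. Both groups spanned nearly the same range, with a chow mean of 0.700 ± 0.0802 and a high-fat mean of 0.708 ± 0.0853 (SD, n = 3 each). The log2 difference was 0.02 ± 0.13 SE (limma adjusted p = 0.963), and the 95% interval ran from 0.815-fold to 1.26-fold. Both of its probes were detected on every array and differed by 0.02 and 0.08. Spots of the brighter probe varied by 2.04% to 5.08% within an array, against 11.5% between the scaled chow arrays and 12.1% between the high-fat arrays. The sign of so small a difference was not stable, since within slide 1 it was -0.13.

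The relative miR-378b, so called by its name, since its sequence was not compared here, lies within the boundaries of Ncoa2 by the same annotation. Ncoa2 is a nuclear receptor coactivator gene, and whether both lie on the same strand was not checked. Its scaled signal was 4.85, 3.79 and 4.33 on chow replicates 1 to 3 and 4.79, 4.65 and 3.96 on high-fat replicates 1 to 3. As for miR-378a-5p, the lowest arrays were chow replicate 2 and high-fat replicate 3. The diets did not differ detectably (log2 difference 0.05 ± 0.13 SE, limma adjusted p = 0.915, 95% interval 0.839-fold to 1.28-fold).

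miR-103-3p and miR-107-3p, the coenzyme A-linked pair, were the most evenly measured of the 4. miR-103-3p had a scaled signal of 5.08, 4.75 and 5.03 on chow replicates 1, 2 and 3, and of 4.94, 5.001 and 4.53 on high-fat replicates 1, 2 and 3. High-fat replicate 3 was the lowest array, and the other arrays of both diets lay between 4.75 and 5.08. The log2 difference was -0.04 ± 0.09 SE (limma adjusted p = 0.909), with a 95% interval from 0.835-fold to 1.13-fold.

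For miR-107-3p the scaled signal was 10.6, 10.1 and 11.3 on chow replicates 1, 2 and 3. It was 11.4, 10.9 and 10.8 on high-fat replicates 1, 2 and 3. The groups overlapped, with a chow mean of 10.7 ± 0.581 and a high-fat mean of 11.0 ± 0.33 (SD, n = 3 each), and the log2 difference was 0.05 ± 0.09 SE (limma adjusted p = 0.87, 95% interval 0.89-fold to 1.21-fold). The residual standard deviation on the log2 scale was 0.07 for miR-103-3p and 0.06 for miR-107-3p, against a median of 0.16 over all tested miRNAs, 0.17 for miR-378a-5p and 0.29 for miR-33-5p.

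The second probe of each miRNA also differed little between the diets, by 0.0036 for miR-103-3p and 0.08 for miR-107-3p on the log2 scale. Within each array, miR-103-3p minus miR-107-3p was -1.06, -1.09 and -1.16 on chow replicates 1 to 3, and -1.21, -1.13 and -1.25 on high-fat replicates 1 to 3. This offset mixes probe brightness with amount and is no ratio of the miRNAs. The change between diets was -0.09 (-1.20 ± 0.06 on high-fat, -1.11 ± 0.05 on chow, SD, n = 3 each), with overlapping groups and a 2-sided exact permutation p of 0.2, where 0.1 is the smallest possible. The partner strands miR-103-1-5p, miR-103-2-5p and miR-107-5p were well above background on 0 of the 6 arrays and were not tested.

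Shifting the seed window by 1 base links the pair to miR-16 and its relatives. In the sequence table, miR-15b-5p, miR-16-5p, miR-195-5p, miR-322-5p and miR-497-5p had the seed AGCAGCA, which equals bases 1 to 7 of miR-103-3p and miR-107-3p. With miR-15a-5p, whose sequence was not compared here, and miR-503-5p, whose seed in the table differs from AGCAGCA, 7 relatives were listed and tested. Of these, 0 passed at an adjusted and 0 at an unadjusted limma p under 0.05, against 0.471% and 11.8% of all 425 miRNAs. The arrays of 1 did not overlap between the diets, against 17.2% of all 425. These 7 are too few to differ clearly from such shares. Their median log2 difference was 0.05, with a range from -0.04 to 0.25.

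Other miRNAs known to act in lipid and glucose metabolism gave the wider setting. Of 25 listed, 21 were tested, and 0 passed in either direction (limma adjusted p under 0.05), while 3 (14.3%) had an unadjusted p under 0.05, against 11.8% of all 425 miRNAs. Their median log2 difference was -0.0020, with 10 positive and 11 negative, so it lay near the median of all miRNAs. The 4 with the smallest p were miR-144-3p at 1.30 ± 0.22 SE, miR-34a-5p at 0.63 ± 0.15 SE, miR-30c-5p at -0.28 ± 0.12 SE and miR-128-3p at 0.20 ± 0.10 SE (limma adjusted p = 0.0615, 0.192, 0.412 and 0.445). miR-144-3p, known to lower Abca1 as miR-33 does, is also 1 of the erythroid markers described above. miR-30c-5p lowers the lipoprotein assembly protein Mttp in mouse liver, and miR-34a-5p lowers the deacetylase Sirt1. The liver and islet miRNAs miR-122-5p, miR-375-3p and miR-802-5p, and miR-758-3p, were well above background on 0 arrays.

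**Figure D4:**
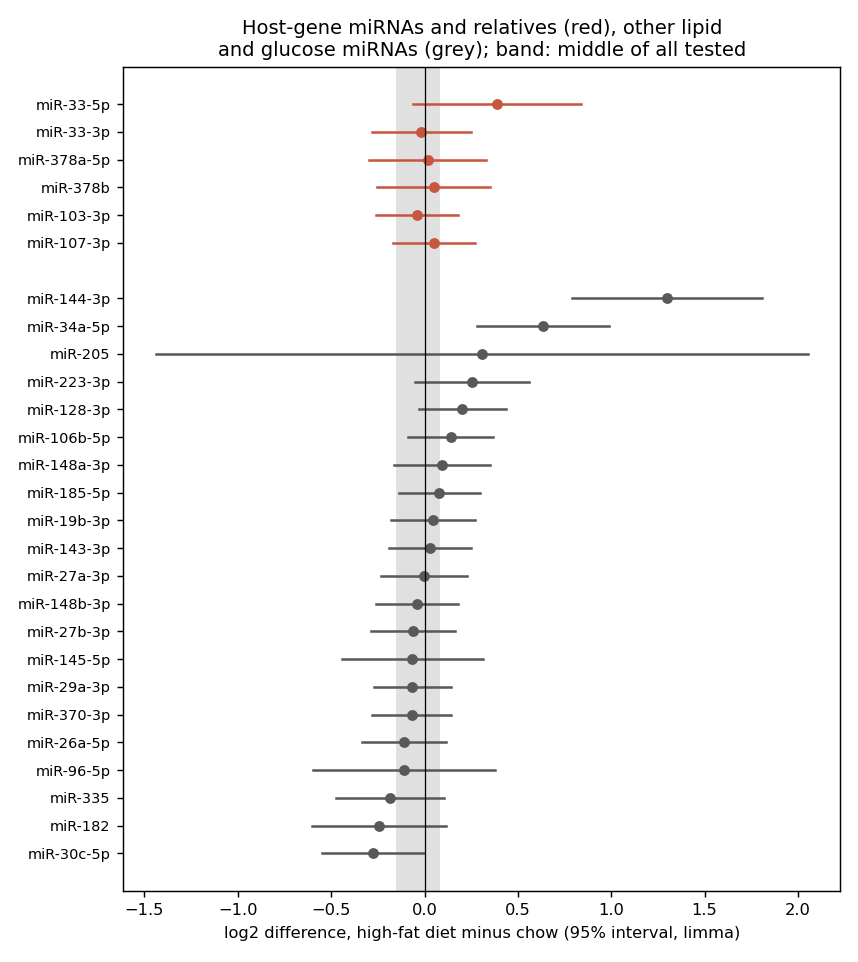
Log2 difference between the diets with its 95% limma interval for the host-gene miRNAs and relatives (red) and 21 other miRNAs of lipid and glucose metabolism (grey); the grey band covers the middle 50% of all 425 tested miRNAs. The intervals of the red miRNAs all include 0, and miR-33-5p lies highest among them at 0.39.

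Adipocyte marker miRNAs, which could enter with fat on the heart, gave no common direction, and 0 of the 3 tested passed (limma). Of these, 1 had an unadjusted limma p under 0.05, as had 11.8% of all 425 miRNAs. Their summed scaled signal over 4 markers was 1.91 to 2.00 on high-fat and 1.79 to 2.25 on chow arrays, most of it from miR-365-3p (1.75 to 1.82 against 1.62 to 2.06). The signal of miR-193b-3p, the member with the unadjusted p under 0.05, was 0.0688 to 0.0823 on high-fat and 0.0893 to 0.117 on chow arrays (log2 difference -0.47 ± 0.13 SE, limma adjusted p = 0.257). These arrays did not overlap, as was so for 17.2% of all 425 miRNAs. miR-455-5p differed by 0.24 ± 0.16 SE with overlapping arrays (limma adjusted p = 0.58), and miR-196a-5p was detected on 1 array. The part of adipocyte RNA in the host-gene values was not tested. In a tissue sample, fewer cells of a type and less RNA per cell cannot be told apart.

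The miRNAs whose scaled log2 signal followed each host-gene miRNA most closely over the 6 arrays were named from 424 candidates, as a description. For miR-33-5p they were miR-148b-5p (Pearson r = 0.952), miR-193a-3p (0.951) and miR-29a-5p (0.921). For miR-378a-5p they were miR-486 (0.989), a miRNA made in muscle and erythroid cells, miR-361-3p (0.957) and miR-484 (0.922). For miR-103-3p they were miR-150-5p (0.974), miR-145-5p (0.932) and miR-125b-5p (0.925), and for miR-107-3p they were miR-28-5p (0.942), miR-151-5p (0.897) and miR-146b-5p (0.867). These signals share the array and its scaling factor, and 6 arrays leave each r imprecise.

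Without scaling, all 4 miRNAs were brighter on the high-fat arrays, by 0.33 for miR-103-3p, 0.42 for miR-107-3p, 0.39 for miR-378a-5p and 0.76 for miR-33-5p on the log2 scale, while the median of all miRNAs moved to 0.32. The sign of miR-103-3p thus turned and the others kept theirs. Relative to that median the differences were 0.0092, 0.10, 0.07 and 0.43, and none of the 4 passed (lowest limma adjusted p = 0.138, for miR-33-5p).

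**Figure D5:**
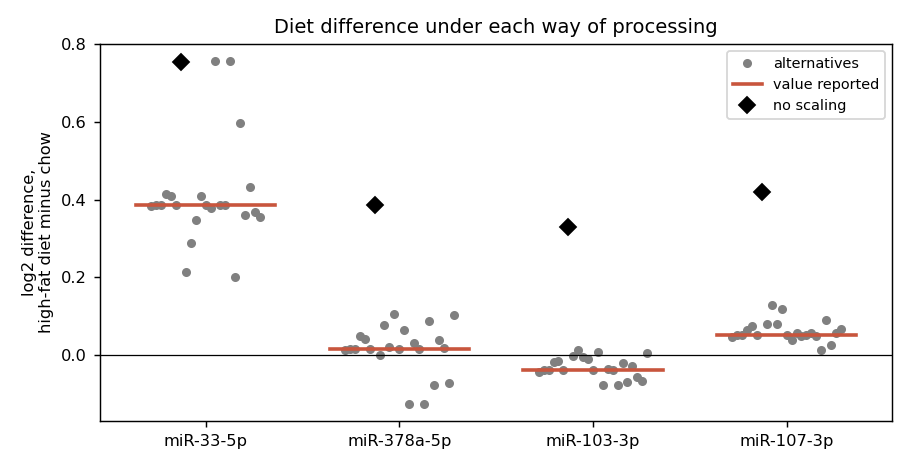
Log2 difference between the diets for the 4 host-gene miRNAs under 23 alternative ways of processing or sets of arrays (points), without scaling (diamond) and as reported (line). The points of miR-33-5p span 0.20 to 0.76 and stay above 0, those of miR-107-3p stay above 0, and those of miR-378a-5p and miR-103-3p lie on both sides of it.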

How the data were processed

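Each sample's total RNA carried a Cy3 label and had an Agilent miRNA array of its own, per the labels' protocols. The deposited files hold intensity values per spot from Agilent Feature Extraction 11.0.1.1, per the submitters' processing notes. They were background-subtracted within the array and not scaled between arrays, per the file headers. A deposited table holds log2 values that follow the software's total signal per miRNA and share their quartiles between arrays. How it was made is not given in the sources used here, and it served as an alternative.

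Control spots and outlier spots (9.07% to 9.42% per array) were left out, and 0 spots were saturated. Spots of a probe were averaged, and a probe with at least 50% of its spots well above background counted as detected. The signal was divided by the array's 75th percentile over the 757 probes detected on all 6 arrays, raised to a floor of -5.82 on the log2 scale where lower, and log2-transformed. Each miRNA was represented by the brightest of its probes, of 1806 in all. The diets were compared over 425 miRNAs with limma 3.58.1 in R 4.3.3 (lmFit and eBayes, Benjamini-Hochberg adjustment, threshold 0.05), a fit that was tested on simulated data. Within-array differences had a 2-sided exact permutation test over 20 assignments of the diets. The number of arrays limits the precision. The members and lists were chosen with earlier results of these data known. Named miRNAs are the members, their partner strands and relatives, the 4 of the metabolism list with the smallest p, and the 3 most similar in pattern to each member. The planned strand comparison of miR-378a was not run, since miR-378a-3p was not analysed here, and that of miR-33 was added. Alternatives covered background correction, signal, scaling, probes, filters, outlier spots, floor, variance model, blocks and leaving out arrays.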

Additional observations from a re-analysis of the deposited data

How the results depend on the processing

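Under 23 alternatives none of the 4 host-gene miRNAs passed the limma test (lowest adjusted p = 0.138, for miR-33-5p without scaling), and 83 of 92 differences kept their sign. Part of that count was fixed in advance, so it is no measure of stability. The higher floor, the detection filters, the variance model and the replicate block left the differences of these 4 unchanged. Slide as a block and within slide 1 gave 1 and the same difference, since slide 2 held no high-fat array. miR-378a-5p turned negative with normexp and the 75th percentile (-0.00030), with slide as a block and within slide 1 (-0.13 in each), and leaving out arrays gave -0.077 to 0.10. miR-103-3p turned positive with normexp and quantile normalisation (0.014), the deposited log2 table (0.0074) and no scaling (0.33), and leaving out arrays gave -0.069 to 0.0060. The change of the miR-33 strands ranged from 0.20 to 0.81, and that of miR-103-3p minus miR-107-3p from -0.13 to -0.03. For miR-33 the diets overlapped in 7 of 11 alternatives tested by permutation. These were normexp in both forms, total signal, quantile, mean over probes, outlier spots kept and the higher floor. The higher floor covered miR-33-3p on every array, so it read miR-33-5p alone and did not compare the strands. The 2 calls among all miRNAs, neither of them a host-gene miRNA, became 8 with normexp and the 75th percentile, 5 without scaling and 1 with the mean over probes. They became 0 with the deposited log2 table, quantile normalisation, a floor 4 times higher, no filter, slide as a block and within slide 1, and 0 to 3 when arrays were left out. Settings with 0 limma calls had 36 to 63 miRNAs at an unadjusted p under 0.05. With the replicate number as a block there were 3 calls, and none of the 4 passed. Same-numbered samples deviated together with correlations of 0.22, -0.01 and 0.05, against -0.20 to 0.13 for samples with unlike numbers. With 3 arrays per diet, these values cannot tell whether the numbers mark pairs. Median scaling left miR-33-5p at 0.41. Chow replicates 1 and 2 each moved the miR-33-5p difference, to 0.20 and 0.60 when left out. The causes were not tested.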
